A study of Mus musculus with 8 samples.

Results

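The transcripts of 32 genes of glycolysis, glucose and lactate transport and the hypoxia response were read from the 56832 rows of a gene table of sorted mouse microglia. The genes were chosen by name, for their place in the pathway, with earlier results of these data known. All 32 were found in the table. Microglia, the resident macrophages of the brain, had been collected by fluorescence-activated sorting from brains of young adult male 5xFAD mice. This line carries mutant human amyloid precursor protein and presenilin transgenes, which are driven in neurons and lead to amyloid plaques. Both groups carry them, so no group without amyloid enters the comparison. The 4 ethanol libraries came from mice injected intraperitoneally with ethanol, 3 g/kg as a 20% solution, and the 4 saline libraries from mice that had received saline on the same schedule. Injections were given on 5 days a week over 4 weeks and were followed by 2 weeks without treatment. The design asks whether this exposure changed the microglial transcriptome, and nothing in the labels says that each library came from its own mouse. The p-values therefore measure the spread between these libraries, which may in part be technical.

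Glucose enters a cell through transporters of the Slc2a family and is trapped by hexokinase. Phosphofructokinase commits it to glycolysis under the control of fructose 2,6-bisphosphate, which the PFKFB enzymes make and degrade. Pyruvate then either enters mitochondria through pyruvate dehydrogenase, which the PDK kinases inhibit, or is turned to lactate, which leaves through the monocarboxylate transporters of the Slc16a family. When oxygen is low the EGLN prolyl hydroxylases no longer mark the transcription factor HIF-1 alpha for destruction, and HIF raises many of these genes. Microglia are known to shift toward glycolysis on inflammatory activation and near plaques.

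HIF binds the core letters ACGTG or GCGTG. These were looked for on both strands, where they read CACGT and CACGC, in the 250 bases before each start that RefSeq gives for GRCm38.p6, an older build than the one named for the table. Overlapping matches were counted once, and the palindrome CACGTG, which holds ACGTG on both strands and is also the E-box of other factors, counts as 1 site. Of the 32 genes 31 had an entry, Slc2a3 being the other, and 38 of their 46 start windows (82.6%) held a match. The share was 38.6% of all 32851 windows and 54.7% of the 12667 windows of genes tested in these libraries. Some members, such as Bnip3 and Vegfa, were chosen as HIF targets, so their share is not independent of that choice. Both cores contain CG, and the windows compared were not matched for CG content. Windows of some genes overlap, as in Aldoa and Eno1, so the same site can count in more than 1 window. The sequences of both lactate dehydrogenase genes are shown because Ldhb exceeded Ldha in every library, with the HIF target Bnip3 and the prolyl hydroxylase gene Egln3, whose values did not overlap between the groups. Each is printed 5′ to 3′ up to the base before the start, with the matched letters in capitals.
Ldha, chr7:46845554-46845803, plus strand: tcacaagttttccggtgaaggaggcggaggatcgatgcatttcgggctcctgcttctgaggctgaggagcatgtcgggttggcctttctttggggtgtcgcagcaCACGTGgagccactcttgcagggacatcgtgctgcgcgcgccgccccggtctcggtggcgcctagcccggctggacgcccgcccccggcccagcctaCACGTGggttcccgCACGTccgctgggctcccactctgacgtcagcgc
Ldhb, chr6:142507958-142508207, minus strand: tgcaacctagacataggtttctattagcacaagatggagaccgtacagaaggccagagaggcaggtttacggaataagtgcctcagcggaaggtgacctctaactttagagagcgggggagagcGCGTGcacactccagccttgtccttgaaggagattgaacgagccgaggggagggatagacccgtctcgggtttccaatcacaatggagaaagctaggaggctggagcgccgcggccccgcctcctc
Bnip3, chr7:138909507-138909756, minus strand: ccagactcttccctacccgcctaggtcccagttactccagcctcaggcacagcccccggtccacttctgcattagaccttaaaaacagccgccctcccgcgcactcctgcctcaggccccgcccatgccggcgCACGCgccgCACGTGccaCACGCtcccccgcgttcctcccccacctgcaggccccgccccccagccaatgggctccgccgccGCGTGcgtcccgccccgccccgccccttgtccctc
Egln3, chr12:54203875-54204124, minus strand: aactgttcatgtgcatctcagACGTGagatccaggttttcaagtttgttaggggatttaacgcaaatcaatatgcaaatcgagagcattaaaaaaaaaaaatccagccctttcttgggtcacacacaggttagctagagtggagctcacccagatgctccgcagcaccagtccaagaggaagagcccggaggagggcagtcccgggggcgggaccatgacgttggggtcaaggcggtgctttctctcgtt
This Ldha window held 3 sites, beginning 145, 48 and 34 bases before the start, and a second Ldha start had 1. Ldhb held 1 site at 126 bases, Bnip3 held 4 at 117, 108, 99 and 35 bases, and Egln3 held 1 at 229 bases. The windows of Gpi1, whose values also did not overlap between the groups, and of Tpi1 held 0 sites each and are not printed. A match describes the letters of the window and not a bound site.

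The libraries held 14271351 to 17231301 reads assigned to genes. Values below are DESeq2-normalized counts, that is, the authors' read counts divided by a size factor for each library. The 8 microglial markers, P2ry12 and Tmem119 among them, summed to between 700650 and 737937 normalized counts in ethanol and between 661786 and 725770 in saline libraries. Neutrophil markers, 9 of 9 with a mean of at least 10, summed to 2574 to 11091 in ethanol and 2776 to 14788 in saline. Endothelial and mural markers summed to 442 to 535 and 428 to 535, with 3 of 9 at 0 in every library. Pecam1, which myeloid cells also express, made up most of that sum. Neuron markers summed to 159 to 285 in ethanol and 119.7 to 296 in saline libraries. Astrocyte markers were higher, at 5724 to 8175 in ethanol and 6399 to 7693 in saline, with Slc1a3 the highest at a mean of 6117. Oligodendrocyte lineage markers summed to 1543 to 1950 and 1534 to 1903, and monocyte markers to 312 to 785 and 385 to 1162. Border macrophage markers summed to 808 to 1246 in ethanol and 511 to 2453 in saline, the highest being saline 2.

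Transcripts of several glycolytic enzymes were abundant. Of the 32 genes 14 averaged at least 1000 normalized counts over the 8 libraries, another 14 lay between 100 and 1000, 3 between 10 and 100 and 1 below 10. The 32 together took 0.369 ± 0.0150% of all normalized counts in ethanol and 0.368 ± 0.00197% in saline libraries (SD, n = 4 each). Between genes, levels were compared per kb of the transcript with the longest coding sequence. On that scale Ldhb, the lactate dehydrogenase subunit of heart type, stood first at a mean of 7777 per kb over the 8 libraries. Gapdh followed at 3288, Aldoa (aldolase) at 3101, Eno1 (enolase) at 2807 and Pkm (pyruvate kinase) at 1979. The same 5 led when merged exon length was used instead. At the other end were Slc2a6 at 16.9 per kb, the vascular growth factor gene Vegfa at 13.9, the platelet-type phosphofructokinase gene Pfkp at 7.13 and Egln3 at 3.04. Near-identical copies make some values uncertain. Gapdh shares at least 300 bases at 95% identity or more with transcripts of 77 other annotated genes, mostly pseudogenes, and the 76 of these in the table summed to 1.43% of its own mean. Reads that matched several copies may have been dropped or split by the authors' counting, and Pgk1, Ldha, Eno1, Tpi1, Pgam1, Pkm, Gpi1, Ldhb and Bnip3 also have such copies. Pfkp shares sequence with Pitrm1, at a mean of 636, and Pdha1 with Map3k15, so reads of these genes cannot all be told apart in libraries without strand.

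**Figure D1:**
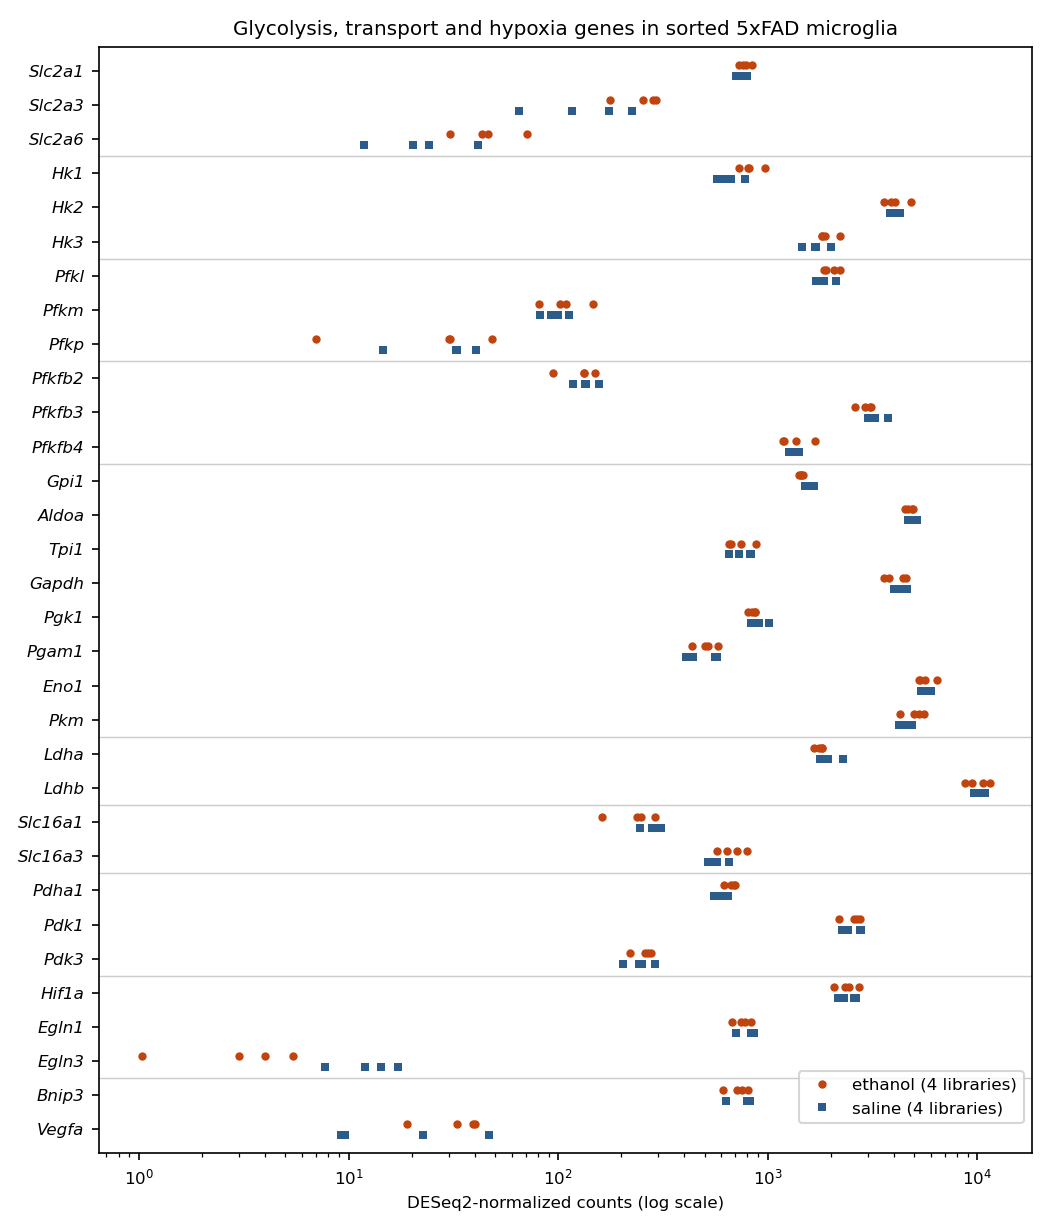
DESeq2-normalized counts (log axis) of the 32 genes, ordered by role, with 1 circle per ethanol library above and 1 square per saline library below. Ldhb is highest at 8769.9 to 11452, and Egln3, at 1.03 to 17.3, is the gene below 10 on average.

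No gene of the set passed the test between ethanol and saline microglia. In limma, fitted to log2(value + 1) of all 14428 genes with a mean of at least 10, 0 of 31 tested members passed a Benjamini-Hochberg adjusted threshold of 0.05, as did 0 of all genes (0% called). At an unadjusted p under 0.05 there were 3 of 31 members, which is 9.68%, against 3.63% of all tested genes. All 3 were higher in ethanol, as were 1.7% of all tested genes at that level, and 0 were lower, as were 1.93%. On recovered reads edgeR gave 2 members of 31 at that level, against 3.43% of all genes it tested. DESeq2, run without the limit of a mean of at least 10, gave 4 of 32, against 2.90% of 26782 genes. That background holds lower genes than those of limma and edgeR. Neither edgeR nor DESeq2 called any after adjustment. The members were chosen with earlier results of these data known, so these shares are not independent of that choice. Fold changes were positive for 15 members and negative for 16, where 48.8% of all tested genes were positive, with a median log2 fold change of -0.005 for the members and -0.005 for all tested genes. In 24 of the 31 members the 95% interval lay inside 1.5-fold either way, against 56.3% of all tested genes. It lay inside 2-fold in 27, for which no share over all genes was taken. Of the 32 members 23 were more abundant than the median tested gene, and the part of abundance in these counts was not tested. Fewer cells expressing a gene and less RNA per cell cannot be told apart in such bulk samples.

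**Figure D2:**
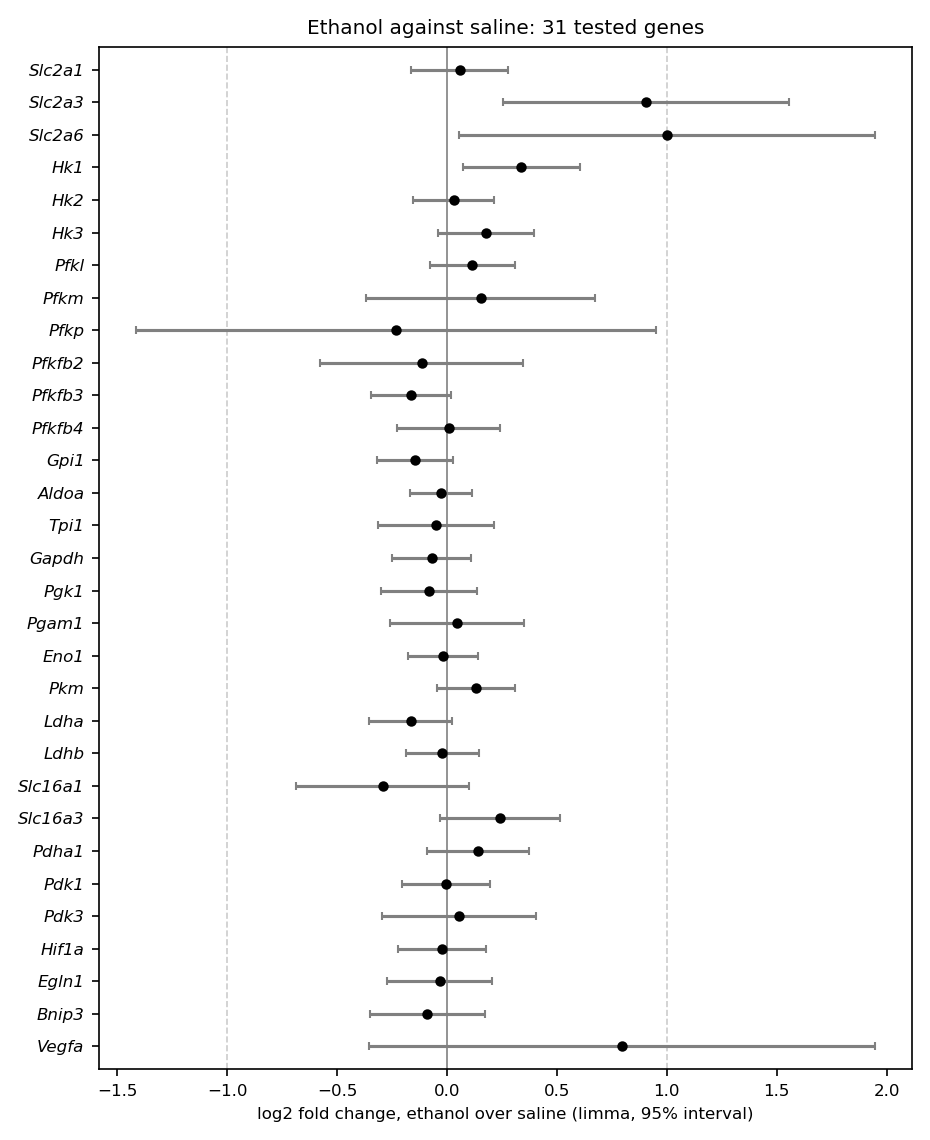
Log2 fold changes of ethanol over saline for the 31 tested genes, with 95% intervals from limma and dashed lines at a 2-fold change. The intervals of Slc2a3, Slc2a6 and Hk1 lie above 0 before adjustment, and their adjusted p of 0.997 did not pass.

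Of the 3 glucose transporter genes of the set Slc2a1 was the most abundant, and Slc2a6 and Slc2a3 had the largest fold changes among the 31 tested members. Slc2a1, the basal glucose transporter GLUT1, had 789, 759.9, 838 and 726 normalized counts in ethanol libraries 1 to 4, against 796, 761, 704 and 729 in saline libraries 1 to 4. The groups lay on top of each other, with a fold of 1.04 (95% interval 0.894 to 1.21). Slc2a3, the high-affinity transporter GLUT3 best known from neurons, had 176, 254, 294 and 283 in ethanol, against 64.7, 117, 174 and 225 in saline. Ethanol 1 was level with saline 3 and below saline 4, and the other 3 ethanol libraries lay above all saline libraries. Its fold was 1.87 (1.19 to 2.94), with a limma p of 0.00941 before and 0.997 after adjustment. Neuron markers summed to 159, 177, 232 and 285 in ethanol libraries 1 to 4, against 252, 119.7, 153 and 296 in saline libraries 1 to 4. Their part in the result was not tested. Slc2a6, a lysosomal transporter of macrophages, had 30.4, 43.1, 46.1 and 71.0 in ethanol, against 41.6, 24.1, 20.4 and 11.8 in saline. Saline 1 lay within the ethanol values and ethanol 4 stood above all others. The fold was 2.00 (1.04 to 3.85), with a limma p of 0.0394 before and 0.997 after adjustment, and edgeR gave 0.0558 before adjustment. Another family member from a list of other glycolysis and transport genes, the fructose transporter gene Slc2a5, which marks microglia, averaged 4263 per kb over the 8 libraries against 234 for Slc2a1, and the transporter gene Slc2a8 of that list averaged 519.7 per kb. Slc2a5 had 14209, 13715, 13401 and 13445 normalized counts in ethanol and 13251, 13079, 13258 and 13349 in saline, a fold of 1.03 (0.957 to 1.12).

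The hexokinase genes, whose products phosphorylate glucose, kept the order Hk2, Hk3, Hk1 in all 8 libraries. Hk2, the inducible form, had 4806, 3866, 4046 and 3583 normalized counts in ethanol, against 3835, 4262.5, 3945 and 3841 in saline, a fold of 1.02 (0.90 to 1.16). Ethanol 1 was the highest and ethanol 4 the lowest of the 8. Hk1, the housekeeping form bound to mitochondria, had 814, 806, 732 and 966 in ethanol, against 571, 669, 611 and 780.3 in saline. Only ethanol 3 fell below the top saline library, and the fold was 1.26 (1.05 to 1.52) with a limma p of 0.0160 before and 0.997 after adjustment. Hk3, a form typical of myeloid cells, had 1883, 2221, 1807 and 1812 in ethanol, against 1679, 2008, 1694 and 1465 in saline, a fold of 1.13 (0.971 to 1.32). Neutrophils also express Hk3. Their marker sum was 2574, 4354, 5820.3 and 11091 in ethanol libraries 1 to 4, against 14788, 3075, 8084 and 2776 in saline libraries 1 to 4, and its part in the Hk3 values was not tested.

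**Figure D3:**
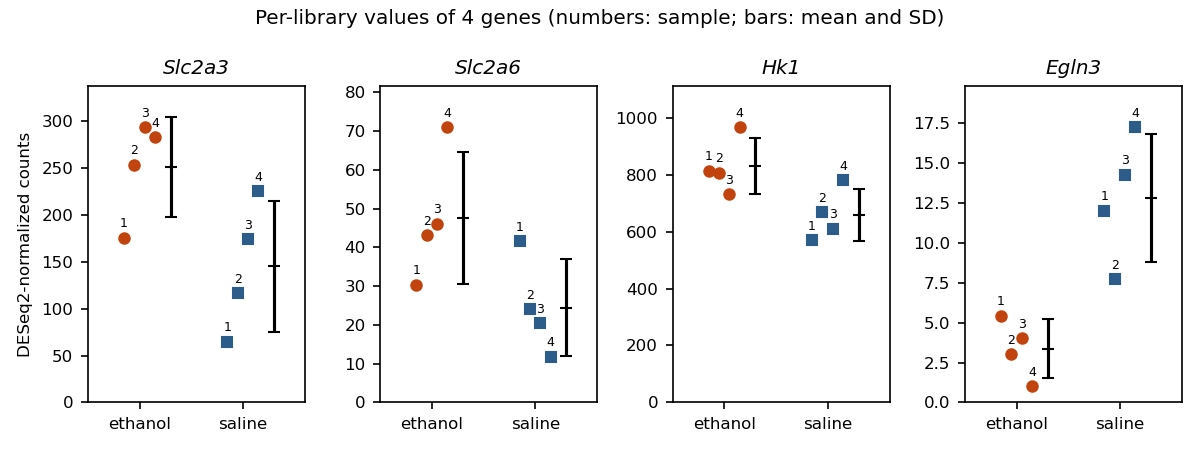
Normalized counts of Slc2a3, Slc2a6, Hk1 and Egln3 in each library (numbers are the sample numbers of the titles), with the mean and SD of each group beside the points. The groups overlap in the first 3 genes, and all 4 ethanol values of Egln3 (1.03 to 5.43) lie below the saline values (7.72 to 17.3).

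Phosphofructokinase was nearly all of the liver type. Pfkl, its subunit gene, had 2067, 2207, 1860.2 and 1905 normalized counts in ethanol, against 1694, 2110.5, 1861 and 1760.5 in saline. The fold was 1.08 (0.947 to 1.24), and the groups overlapped. Pfkm, the muscle type, averaged 109.7 ± 27.0 in ethanol and 97.0 ± 12.8 in saline, and Pfkp, the platelet type, 29.0 ± 16.9 and 30.2 ± 11.1 (SD, n = 4 each). Ethanol 2 was the lowest library for Pfkp at 7.02. Among the PFKFB enzymes Pfkfb3, which strongly favours synthesis of fructose 2,6-bisphosphate, had 2622, 3074, 2907 and 3123 in ethanol, against 3745, 3258, 3013 and 3125 in saline. Saline 1 was highest and ethanol 1 lowest, with a fold of 0.893 (0.788 to 1.01). Pfkfb4 averaged 1356 ± 226 and 1336 ± 79.5, and Pfkfb2 127 ± 23.3 and 137 ± 16.4.

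Of the 8 enzymes that carry glucose 6-phosphate to pyruvate outside these families, 6 had negative and 2 positive fold changes, and none passed. Gpi1, which turns glucose 6-phosphate to fructose 6-phosphate, had 1439, 1449.7, 1416 and 1468 normalized counts in ethanol, against 1651, 1560.4, 1511 and 1666 in saline. All 4 ethanol libraries lay below all 4 saline libraries, which was true of 1 of the 31 tested members, while 1.2% of all tested genes lay wholly below in ethanol and 2.32% did not overlap in either direction. The fold was 0.905 (0.802 to 1.02), with a limma p of 0.0967 before and 0.997 after adjustment. Aldoa, which splits the hexose, had a fold of 0.980 (0.889 to 1.08) and Eno1 one of 0.987 (0.885 to 1.10). Gapdh had 3608, 3772, 4439 and 4552 in ethanol, against 4203, 4014, 4642 and 4259 in saline, a fold of 0.953 (0.841 to 1.08). Pkm, which makes pyruvate, had 4299, 4971, 5292 and 5599 in ethanol, against 4213, 4428, 4877 and 4817 in saline, a fold of 1.10 (0.968 to 1.24). Its 2 splice forms cannot be separated in a table per gene. Tpi1, Pgk1 and Pgam1 had folds of 0.965, 0.944 and 1.03, each with an interval that included 1.

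At the branch to lactate Ldhb exceeded Ldha in every library. Ldhb had 8769.9, 9456, 11452 and 10675 normalized counts in ethanol, against 9859.7, 9616, 10897 and 10401 in saline, and ethanol 1 was the lowest and ethanol 3 the highest of the 8. Its fold was 0.986 (0.878 to 1.11). Ldha, the muscle-type subunit gene that HIF is known to raise, had 1671, 1813, 1748 and 1820.2 in ethanol, against 1936, 2277, 1783 and 1939 in saline. Saline 3 lay within the ethanol values and saline 2 stood highest, with a fold of 0.892 (0.782 to 1.02) and an unadjusted limma p of 0.0819. Per kb of transcript the mean of Ldhb was 7.53 times that of Ldha, with 5.88 to 9.12 times in single libraries. Among the monocarboxylate transporters Slc16a3, the lactate exporter MCT4, had 570.3, 713, 642 and 793 in ethanol, against 545, 653, 575 and 518 in saline. Slc16a1, the transporter MCT1, had 248, 238, 162 and 290.2 in ethanol, against 247, 281, 292 and 309 in saline. The ethanol mean was higher for Slc16a3, with a fold of 1.18 (0.978 to 1.43), and lower for Slc16a1, with a fold of 0.817 (0.622 to 1.07). Slc16a7, the transporter MCT2, averaged 664 ± 53.0 in ethanol and 661 ± 84.4 in saline (SD, n = 4 each). Neither passed, and ethanol 3 was the lowest library for Slc16a1.

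Pdha1, Pdk1 and Pdk3, which set the flow of pyruvate through pyruvate dehydrogenase, did not pass the test. Pdha1, the catalytic subunit of pyruvate dehydrogenase, had 668 ± 34.9 normalized counts in ethanol and 606 ± 40.6 in saline (SD, n = 4 each), a fold of 1.10 (0.939 to 1.30). Its inhibitor kinase Pdk1, a known HIF target, had 2549.9 ± 253 and 2558 ± 256, a fold of 0.997 (0.868 to 1.14). Per kb the mean of Pdk1 was 4.13 times that of Pdk3, which had 256 ± 25.4 and 248 ± 35.1.

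The hypoxia arm likewise gave no call, and its least abundant gene did not overlap between groups. Hif1a, the oxygen-regulated subunit of HIF-1, had 2337, 2718, 2074 and 2433 normalized counts in ethanol, against 2578, 2643, 2323 and 2157 in saline. Ethanol libraries were both the lowest and the highest of the 8, and the fold was 0.984 (0.856 to 1.13). Egln1, the main prolyl hydroxylase, had a fold of 0.977 (0.827 to 1.154). Egln3, a hydroxylase that HIF itself induces, had 5.43, 3.01, 4.01 and 1.03 in ethanol, against 12.02, 7.72, 14.3 and 17.3 in saline. These values stand for 5, 3, 4 and 1 reads in ethanol and 13, 8, 14 and 19 in saline, so every ethanol library was lower, at very low counts. Its mean of 8.09 kept it out of the test, and it was singled out after its values were seen. Of the 14428 tested genes 2.32% did not overlap between the groups. That share leaves out genes as low as Egln3, for which none was taken. In the limma fit without a filter on low values its log2 fold change was -1.73, with a p of 0.0301 before and 0.917 after adjustment over 26812 genes. Bnip3, a mitophagy receptor gene that HIF raises, had 611, 712, 756 and 809 in ethanol, against 632, 827, 819 and 795 in saline, a fold of 0.940 (0.783 to 1.13). Vegfa, a classic HIF target, was low, with 40.2, 19.0, 33.1 and 39.1 in ethanol, against 9.25, 9.65, 46.9 and 22.7 in saline. Saline 3 had the most, and the interval of the Vegfa fold of 1.74 ran from 0.783 to 3.86. Genes of isolation stress summed to 9740.0, 9520.1, 11813 and 10369.8 in ethanol, against 8803, 9532, 16788 and 9435 in saline, and their part in the Vegfa values was not tested. Among the HIF-linked genes of this paragraph only Vegfa, at low counts, had a fold above 1. Hif1a, Egln1, Bnip3 and Egln3 lay below 1, and the intervals of Hif1a, Egln1, Bnip3 and Vegfa included 1. The fold changes of Hif1a and Egln1 turned sign when some single libraries were left out. In a list of 25 other tested genes of the HIF system 12 were positive and 13 negative, so no common direction is read from these few genes.

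Shares of paralogs were taken of the summed counts of the member genes of a family. They leave out genes of the other lists, among them Slc2a5, Slc2a8, Slc16a6, Slc16a7, Pdk2, Pfkfb1 and Egln2. Pfkl made up 93.5 ± 1.90% of phosphofructokinase counts in ethanol and 93.6 ± 0.395% in saline libraries (SD, n = 4 each). Ldhb made up 85.0 ± 1.35% and 83.7 ± 2.12% of lactate dehydrogenase counts, Hk2 59.5 ± 3.93% and 62.7 ± 0.831% of hexokinase counts, and Pfkfb3 66.4 ± 4.39% and 68.9 ± 2.81% of PFKFB counts. Counts favour long transcripts. Per kb of transcript the mean shares in ethanol and saline were 47.5% and 50.7% for Hk2, against 38.6% and 37.3% for Hk3. The order of paralogs by counts was shared by all 8 libraries in each of the 8 families, and per kb in all but the glucose transporters, where 7 libraries shared it. Differences between the groups were tested for 16 shares with exact permutation (two-sided, all 70 ways to divide the libraries), where 0.0286 is the smallest p that can arise. None passed after Benjamini-Hochberg adjustment, where the smallest adjusted p was 0.457. Slc16a3 took 74.4 ± 4.195% of the summed counts of Slc16a1 and Slc16a3 in ethanol and 66.9 ± 3.23% in saline, a difference of 7.501 percentage points (exact p = 0.0571, adjusted 0.457). Slc2a1 took 72.4 ± 5.02% and 81.6 ± 5.77% of the summed counts of Slc2a1, Slc2a3 and Slc2a6 (difference -9.21 points, exact p = 0.0857, adjusted 0.457). Egln3 took 0.451 ± 0.249% and 1.66 ± 0.643% of the summed counts of Egln1 and Egln3, where Egln2 averaged 462 per kb over the 8 libraries against 214 for Egln1, with an exact p of 0.0286 and an adjusted p of 0.457.

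**Figure D4:**
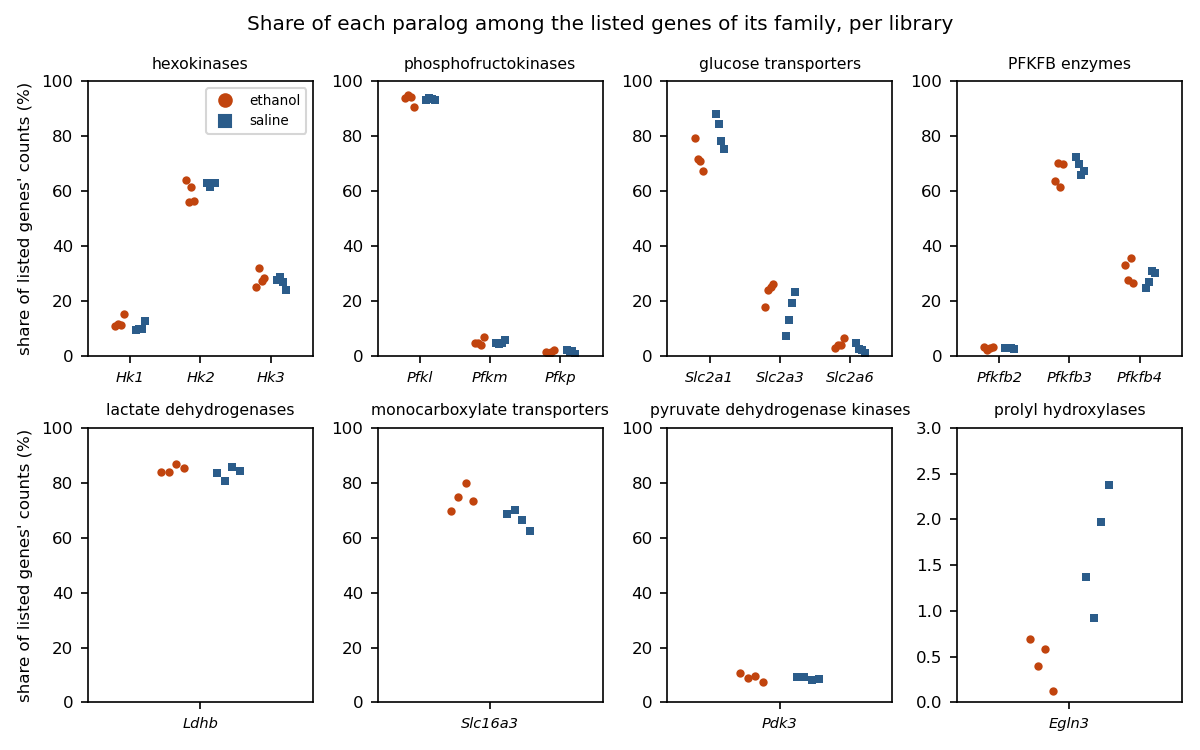
Share (%) of each paralog in the summed normalized counts of the member genes of its family, with circles for ethanol and squares for saline libraries. The prolyl hydroxylase panel has its own axis up to 3%. Pfkl (90.7 to 94.99%) and Ldhb (80.9 to 86.8%) dominate their families in both groups.

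Across the 8 libraries the genes of the set did not rise and fall as a block. Over the 465 pairs of the 31 tested members the median Pearson's r of log2(value + 1) was 0.06, against -0.002 over all 104076378 pairs of tested genes. An r of at least 0.9 was found for 3 member pairs, or 0.645%, where 0.167% of all pairs reached it. Among genes with a mean of at least 500 such an r was found for 2 of 253 member pairs, or 0.791%, against 0.251% of all pairs. At -0.9 or below were 0 member pairs of the 465, where 0.139% of all pairs of tested genes were. In an exact permutation test over the 40320 pairings, 32 pairs, or 6.88%, had an unadjusted p under 0.05. By chance a share of about 0.05 would reach that level, and 0 passed Benjamini-Hochberg adjustment over the 465 pairs. The smallest adjusted p was 0.150. With deviations from the group means in place of the values, 1 pair, Pfkp and Pfkfb2, passed. Libraries share their scaling, and the first principal component of all genes put samples 1 and 2 of both groups on one side and samples 3 and 4 on the other, a division that holds too few libraries for an r within each part.

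Pfkp and Pfkfb2 had the highest r, 0.97 (exact permutation p = 0.00067, adjusted 0.150, Spearman's rho 0.95), and 0.86 without ethanol 2 and saline 4, which lay farthest from the Pfkp median. Gapdh and Ldhb followed at 0.92 (rho 0.93, exact p = 0.000893, adjusted 0.150, and 0.82 without ethanol 1 and 2), and Aldoa and Gapdh at 0.92 (rho 0.95, exact p = 0.000967, adjusted 0.150, and 0.85 without saline 3 and ethanol 1). As deviations from the means of samples 1 and 2 and of samples 3 and 4 Gapdh with Ldhb and Aldoa with Gapdh had r of 0.73 each, and Pfkp with Pfkfb2 had 0.97. Hk3 and Pfkl had an r of 0.89 (exact p = 0.00268, adjusted 0.225) and Slc2a1 and Pdk3 one of 0.86 (exact p = 0.00536, adjusted 0.225). The most negative pairs were Slc2a6 and Pgk1 at -0.87, Slc2a1 and Slc16a1 at -0.87, Eno1 and Pdk3 at -0.86, Ldha and Pdha1 at -0.86 and Pfkfb4 and Hif1a at -0.85. Their exact permutation p-values ran from 0.00345 to 0.00727 before adjustment, and each was 0.225 after it. Slc2a6 and Pgk1 had an r of -0.54 without saline 4 and ethanol 4, so that relation rests largely on those libraries. Of the 15 pairs of paralogs none reached an unadjusted p under 0.05. They ran from an r of -0.42 for Pfkl and Pfkp to 0.38 for Slc2a1 and Slc2a6, with -0.09 for Ldha and Ldhb, -0.09 for Hk1 and Hk2, and -0.13 for Slc16a1 and Slc16a3. With 1 library left out the r of Slc2a1 and Slc2a6 ran from 0.23 to 0.76.

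**Figure D5:**
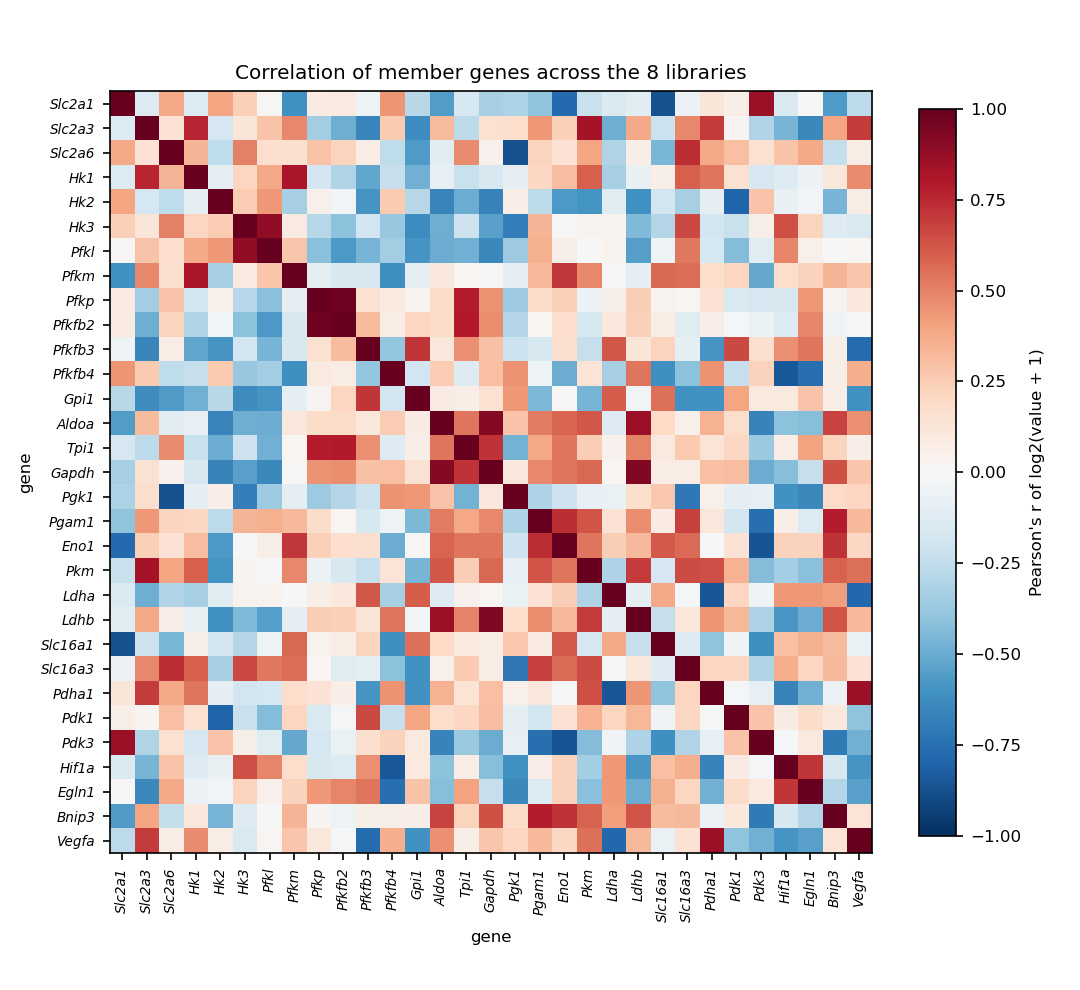
Pearson's r of log2(value + 1) across the 8 libraries for every pair of the 31 tested genes, in the order of their roles, from blue (-1) to red (1). Aldoa, Gapdh and Ldhb form the reddest triangle off the diagonal, with r of 0.92 for Gapdh and Ldhb, and no broad red block covers the pathway.

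Other genes of the pathway were read from 4 lists of 92 genes in all, of which 77 were tested. None was called higher or lower in ethanol, and 3 had an unadjusted p under 0.05 in limma, or 3.90%, near the 3.63% of all tested genes. Of the 18 tested genes of other glycolysis and glucose transport 11 had positive and 7 negative fold changes. Pfkfb1, the liver PFKFB gene, had the smallest limma p there (0.0142, adjusted 0.997), at 20.6, 4.01, 8.02 and 11.3 normalized counts in ethanol, against 54.6, 15.4, 29.6 and 37.2 in saline. In the 19 genes of other lactate and pyruvate steps 13 were positive. Bsg, the chaperone of the lactate transporters, was the most abundant at 6436 ± 305 in ethanol and 6331 ± 579 in saline (SD, n = 4 each). Mpc2, a subunit of the mitochondrial pyruvate carrier, had 676, 648, 780.2 and 789 in ethanol, against 546, 557, 636 and 679 in saline, a fold of 1.20 (1.003 to 1.43), with a limma p of 0.0468 before and 0.997 after adjustment. Ethanol 1 and 2 lay below saline 4. Glycogen and pentose phosphate genes had 13 positive and 2 negative fold changes (median log2 fold change 0.04), and Taldo1, the transaldolase gene, led them at 2277 ± 164 and 2274 ± 245. Rpe had the smallest limma p of that list (0.234 before and 0.997 after adjustment), at 449 ± 56.3 and 396 ± 62.5. In the 25 tested genes of the wider HIF system 12 were positive and 13 negative. P4ha1, a collagen prolyl hydroxylase gene that HIF raises, was the most abundant at 3363 ± 393 and 3616 ± 298, and Tfrc, the transferrin receptor gene, had the smallest p (0.107 before adjustment), at 253 ± 48.4 and 202 ± 31.7.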

How the data were processed

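RNA-seq was done on 4 ethanol and 4 saline libraries of sorted microglia. Per the labels' protocols, cDNA was made from 500 pg of total RNA with SMARTer chemistry and libraries with NexteraXT, which does not mark strand. Per the submitters' processing notes, STAR 2.7.9a, featureCounts 2.0.1, Salmon 1.5.2 and DESeq2 were used with GRCm39; the sources used here give neither their roles nor the annotation. The authors deposited 1 table of signal values, DESeq2-normalized counts; all non-zero values were whole multiples of 1 step per library within 1e-06, so reads were recovered. In ethanol 2 and 3 the step was 1.00254 and 1.00281, too close to 1 for the unit check to tell reads from rounded values, so the reads of these libraries are less certain. Intervals cover the spread between libraries, and the reads carry no molecular identifiers.

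Log2(value + 1) was tested with limma 3.58.1 (R 4.3.3, trend, two-sided, Benjamini-Hochberg over 14428 genes with a mean of at least 10, threshold 0.05). Shares and pairs used exact permutation tests, which are approximate where deviations from means were permuted. The pipeline was tested on simulated data. Alternatives were pseudocounts of 0.5 and 5, no filter, a mean of at least 50, quantile normalization, the replicate block, a covariate from the digits of each library's name, edgeR 4.0.16, DESeq2 1.42.0, shares per kb, centred and rank correlations, and leaving out each library. The centring on samples 1 and 2 and samples 3 and 4 was chosen after seeing the data. Transcript lengths and copies came from GENCODE M21 (GRCm38), by symbol. All 32 members are named. Of the other genes, the rule named the most abundant and the one with the smallest p per list. Slc2a8, Slc16a6, Slc16a7, Pdk2 and Egln2 were named outside that rule, as relatives of members. Of the pairs, the 5 highest, the 5 lowest and paralogs are named. Members and lists were chosen with earlier results of these data known.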

Additional observations from a re-analysis of the deposited data

Results flagged for a closer look

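In a group of 4 libraries, 4 of 96 sets of values held a library far from the others by Dixon's criterion, where chance gives about 1 in 20. Bnip3 was at 632 normalized counts in saline 1, and the nearest saline library was at 795. The Hk1 share of hexokinase counts was 12.8% in saline 4, with the next saline library at 9.77%. The Hk2 share was 61.4% in saline 2, with the next saline library at 63.0%. The Pfkm share of phosphofructokinase counts was 5.97% in saline 4, with the next saline library at 4.67%. Ethanol 4 had the highest Pfkm share of all libraries, at 6.96%.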

How the results depend on the processing

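Limma called 0 genes and 0 members under each pseudocount, filter, normalization, covariate and omission tried, and edgeR and DESeq2 also called 0. With the sample number as a replicate block it called 0 as well, with 645 genes at an unadjusted p under 0.05. With 1 library left out, 1 to 5 members had an unadjusted limma p under 0.05, fewest without ethanol 4 and most without ethanol 1 or saline 3, against 3 with all libraries. The share of all tested genes at that level then ran from 2.97% (without saline 1) to 4.66% (without ethanol 1). Deviations of same-numbered samples correlated at 0.0283, 0.0644, 0.0796 and 0.0138, and ethanol 1 correlated best with saline 2 (0.137), so the numbers were not taken as pairs. Between ethanol and saline libraries the correlations were all positive within samples 1 and 2 and within samples 3 and 4. Across these sets they were all negative, and the main limma fit has no term for that division. The count of shares that passed was 0 in each alternative, and the sign-flip test of the block cannot go below 0.125. For correlated pairs the count was 1 with deviations from group means and 1 with deviations from the means of samples 1 and 2 and of samples 3 and 4. That pair was Pfkp and Pfkfb2, at r of 0.981 and 0.973 (adjusted p = 0.0346 and 0.0115, permutation test). With 1 library left out 0 pairs passed in each case. Values near 0 turned sign in places, none past the threshold, and the cause was not tested. With the covariate from library names the log2 fold change was -0.0202 for Hk2, 0.0187 for Ldhb and 0.0491 for Pdk1. Ldhb was at 0.00555 under quantile normalization and Pdk1 at 0.000396 in edgeR. With deviations from group means r was -0.552 for Slc2a3 and Slc2a6, -0.297 for Hk1 and Hk3 and 0.302 for Slc16a1 and Slc16a3. Centred on samples 1 and 2 and samples 3 and 4 it was 0.0924 for Slc2a1 and Slc2a3, 0.0249 for Hk1 and Hk2, -0.0534 for Hk2 and Hk3 and 0.321 for Ldha and Ldhb. Pfkfb2 and Pfkfb4 had a rho of -0.19, and r of -0.0405 under quantile normalization.

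With 1 library left out, log2 fold changes that turned sign ran from -0.0519 to 0.0893 for Hk2, -0.561 to 0.313 for Pfkp, -0.198 to 0.0212 for Pfkfb2, -0.0977 to 0.0672 for Pfkfb4, -0.0493 to 5.21e-06 for Aldoa, -0.14 to 0.00221 for Tpi1, -0.0397 to 0.12 for Pgam1, -0.0822 to 0.0138 for Eno1, -0.0845 to 0.0438 for Ldhb, -0.0604 to 0.0672 for Pdk1, -0.0335 to 0.133 for Pdk3, -0.0867 to 0.0433 for Hif1a and -0.0773 to 0.0196 for Egln1. Share differences in percentage points ran from -0.54 to 0.879 for Pfkl, -0.421 to 0.55 for Pfkm, -0.458 to 0.209 for Pfkp, -0.136 to 0.26 for Pfkfb2 and -0.156 to 1.02 for Pdk3. Correlations ran from -0.591 to 0.197 for Slc2a1 and Slc2a3, -0.0793 to 0.519 for Slc2a3 and Slc2a6, -0.542 to 0.368 for Hk1 and Hk2, -0.665 to 0.173 for Pfkl and Pfkp, -0.705 to 0.0661 for Pfkm and Pfkp, -0.0899 to 0.529 for Pfkfb2 and Pfkfb3, -0.497 to 0.261 for Pfkfb2 and Pfkfb4, -0.605 to 0.215 for Ldha and Ldhb, -0.444 to 0.0847 for Slc16a1 and Slc16a3 and -0.0816 to 0.575 for Pdk1 and Pdk3. Few reads stand behind Egln3, Vegfa, Pfkp and Slc2a6, and depth limits what can be said of them.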
